A study of Mus musculus with 12 samples.

Results

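The genes described here encode the voltage-gated sodium channels (Scn), the voltage-gated calcium channels and their auxiliary subunits (Cacna, Cacnb and Cacng) and the hyperpolarization-activated pacemaker channels (Hcn) of the mouse. They were chosen by name, as every gene of the expression table whose symbol begins with Scn or Hcn and a digit, or with Cacna, Cacnb or Cacng, and carries no number in brackets for a repeated locus. This gave 44 of 26190 genes, of which 35 were expressed, meaning 10 or more fragments in at least 3 of 12 libraries.

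Voltage-gated sodium channels carry the fast upstroke of the action potential in working cardiomyocytes. L-type calcium channels, whose pores are made by Cacna1c and Cacna1d, admit the calcium that triggers contraction, and T-type channels (Cacna1g and Cacna1h) open at more negative voltages. Hcn channels open on hyperpolarization and carry the inward current of pacemaker cells. In the embryonic heart pacemaker activity settles in the sinus venosus and right atrium, where Hcn4 is the best-known marker of the sinoatrial node.

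The libraries were made from 4 groups of 3 replicates each. One pair of groups came from wild-type mouse embryos of E11.5, whose hearts (E11.5H) were divided into atria and ventricles. The other pair came from heart organoids (HOs), contracting bodies derived from mouse embryonic stem cells, and consisted of their atrium-like and ventricle-like parts. All 12 samples carry the strain label C57BL/6, while the methods name embryonic stem cells of C57BL/6 and of F1 hybrids of C57BL/6 with JF1. The HOs were sampled after 13 days on a laminin-entactin matrix with FGF4, with BMP4, BIO (a GSK3 inhibitor) and LIF added in the later phase, and none of these agents was given to the embryos. The parts were cut by hand, so each library is a mixture of cell types, and in such bulk RNA fewer cells of a type and less RNA per cell cannot be told apart. How many embryos or HOs were pooled in a library is not given in the sources used here. The methods call the 3 HO replicates biological ones, and nothing says whether an atrium-like and a ventricle-like part of the same number came from the same HOs. For E11.5H neither the labels nor the methods say whether replicates came from separate litters, so the p-values measure the spread between these samples.

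The libraries held 23971258 to 30540993 fragments assigned to genes. Genes of a 16-gene pan-cardiomyocyte list, such as Tnnt2 and Actn2, were detected in all groups, with a summed level of 17763 to 20362 FPKM (fragments per transcript length and library total) in atria and 18525 to 18877 FPKM in ventricles of E11.5H. The sum was far lower in HOs, at 323 to 1231 FPKM in atrium-like and 1926 to 4715 FPKM in ventricle-like parts. Replicate 2 of the ventricle-like parts stood apart with 343 FPKM summed over 10 neural genes, all 10 of them at 10 or more fragments, against 9.71 to 74.1 FPKM in the other ventricle-like libraries. Myog, a skeletal muscle regulator, was at 29 FPKM in replicate 2 of the atrium-like parts and 30.0 FPKM in replicate 2 of the ventricle-like parts, and at no more than 0.0415 FPKM in the other 4 HO libraries. Genes of endoderm, which gives rise to gut and liver, were high in HOs. A list of 9 hepatocyte and visceral endoderm genes summed to 1.08 to 4.80 FPKM in E11.5H, 560 to 11859 FPKM in atrium-like and 30.2 to 4304 FPKM in ventricle-like parts, and a list of 10 gut epithelium genes to 26.6 to 50.5, 467 to 2243 and 76.4 to 1120 FPKM. Replicate 1 of the atrium-like parts had the highest sum of both endoderm lists and the lowest pan-cardiomyocyte sum. The ventricular list had a mean of 2.26 to 5.0 log2 CPM (CPM is the count scaled to the library total, with 0.1 added) in atrium-like and 4.27 to 5.96 log2 CPM in ventricle-like parts. The atrial list was at 2.22 to 3.08 and 3.20 to 3.95 log2 CPM, so by this measure the atrium-like parts were not the higher HO group for atrial genes. With libraries scaled to equal levels of the pan-cardiomyocyte list, 8 tested atrial genes had a median log2 fold change of 0.35 (atrium-like over ventricle-like). The median over all genes was 1.49 under that scaling.

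In most families of the embryonic heart a single gene led in all 6 libraries. Cacna1h led the T-type pores, Cacna1a the neuronal-type pores, Cacna2d2 the alpha2delta subunits and Hcn4 the pacemaker channels in all 6 libraries of E11.5H by FPKM. In 2 families the leading gene differed between the chambers. Cacna1d led the L-type pores in the 3 atrial libraries and Cacna1c in the 3 ventricular libraries, and Cacnb3 led the beta subunits in the 3 atrial libraries and Cacnb2 in the 3 ventricular libraries. The mean FPKM of 11 expressed members was highest in atria of E11.5H, of 4 in ventricles of E11.5H, of 1 (Scn4a) in atrium-like parts and of 19 in ventricle-like parts of HOs. This was not counted over all genes, so it has no background. Scn9a, Cacng1, Cacna1b and Cacng3, all among the 19, reached 10 fragments in HO libraries only. For these genes an HO group as the highest followed largely from the filter on expression. Many of the 19 means rested mostly on ventricle-like replicate 2, as for Scn2a at 0.150, 2.35 and 0.0370 FPKM in the ventricle-like parts. The same library was by far the highest of the ventricle-like parts for Scn3a, Scn3b, Scn9a, Hcn3, Cacna1b, Cacna1e, Cacnb4, Cacng1, Cacng3, Cacng4 and Cacna2d3. Other means did not rest on 1 library, as for Cacnb3 at 10.7, 11.6 and 8.91 FPKM.

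**Figure D1:**
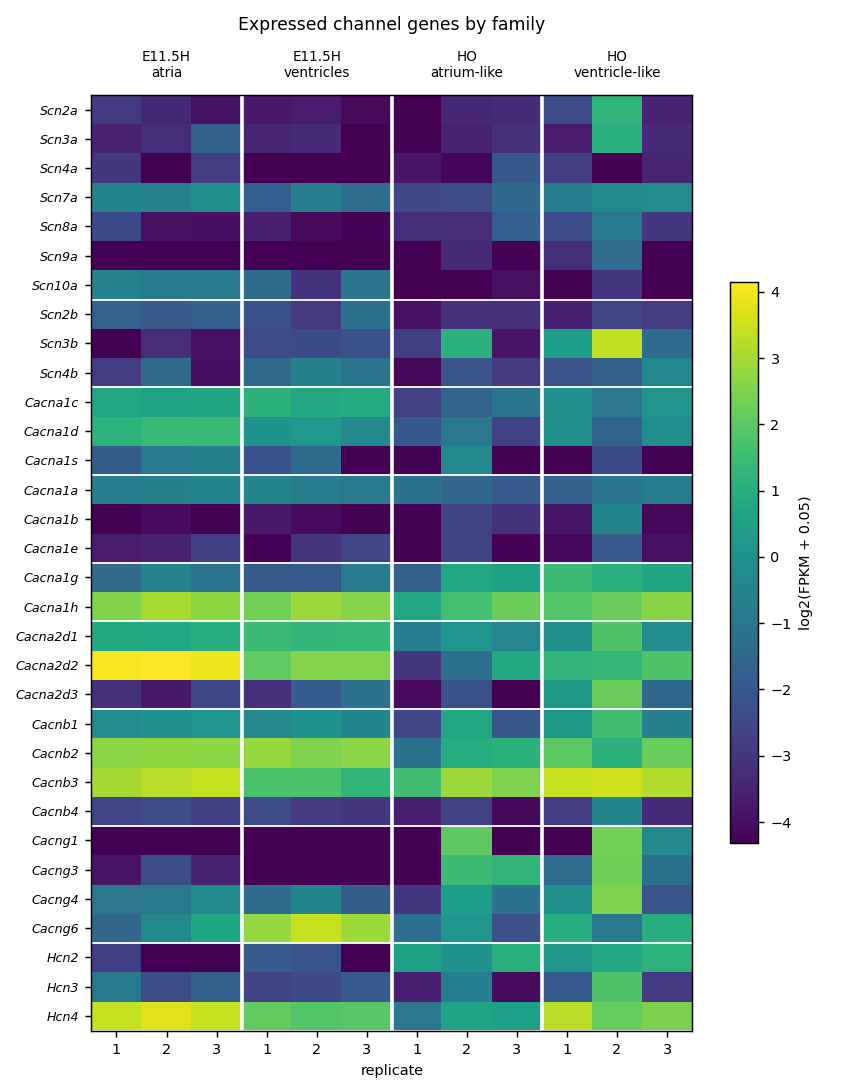
Expression of expressed members in the 12 libraries as log2(FPKM + 0.05), with 1 row per gene, white lines between the families and 1 column per replicate. Cacna2d2 was high in both embryonic chambers and low in HOs, and replicate 2 of the ventricle-like parts had the highest level of Scn2a (2.35 FPKM), Scn3a (2.05 FPKM), Scn3b (10.3 FPKM) and Hcn3 (3.47 FPKM).

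Of the 9 members that were not expressed, Cacng8 and Cacna1f reached 10 fragments in no library, Cacna2d4 in 1 library and Scn1a, Scn11a, Cacna1i, Cacng2, Cacng5 and Cacng7 in 2. Just inside the limit, with 3 libraries each, were Scn9a (highest count 116), Cacng1 (199) and Cacna1b (219), and just outside it were Cacng5 (383) and Scn1a (140). For Cacng5, Scn1a, Scn9a, Cacng1 and Cacna1b the highest count lay in replicate 2 of the ventricle-like parts. A count of 0 in a library allowed up to 0.0982 to 0.125 CPM, taking 3 counts as the limit, and covers counting error only.

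Between the chambers of E11.5H, 5 channel genes were higher in atria and 1 was higher in ventricles. Among the atrial genes were the pacemaker channel Hcn4, the L-type pore Cacna1d and the calcium channel subunits Cacna2d2 and Cacnb3, by 1.27 to 1.58 on the log2 scale. The ventricular gene was Cacng6, a gamma subunit of calcium channels. Fragments were tested over all genes with edgeR's quasi-likelihood test, and a gene was called where its adjusted p (Benjamini-Hochberg) lay under 0.05 and its log2 fold change beyond 1 in either direction. Of 28 members tested, 6 were called, against 4.9% of all 14536 genes tested. Members called higher in atria were 5 of 28, against 2.92% of all genes, and members called lower in atria were 1 of 28, against 1.97%. All 6 were called with every library left out in turn.

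In HOs no member was called between the atrium-like and the ventricle-like parts, and no gene of the whole table was called by edgeR, so the background was 0% of 15703 genes. At an unadjusted p under 0.05, 889 genes and 6 of the 30 members tested differed, among them Hcn4, Cacnb3, Cacna1c, Scn7a and Cacna2d3, all 6 fitted lower in the atrium-like parts. DESeq2, run as another test, called 56 genes, and among the members Hcn4 alone. The fitted log2 fold change was below 0 for 29 of the 30 members, with a median of -1.40, while the median over all genes was -0.03. The pan-cardiomyocyte list, with none of its 16 genes called, had a median log2 fold change of -1.64. When the libraries were scaled to equal levels of that list, 15 of the 30 members were below 0, the median of the members was -0.003 and the median over all genes was shifted to 1.49.

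The chamber difference itself differed between HOs and E11.5H for 3 members, tested in 1 fit to all 12 libraries as an interaction term (chamber by tissue). Among these were Hcn4 and Cacnb3, whose fitted atrial value was the higher one in E11.5H and the lower one in HOs. They were 3 of 35 members tested, against 0.152% of all 16494 genes, and all 3 had a lower atrial difference in HOs, against 0.127% of all genes. The 3 calls did not hold under every setting. With the replicate number as a block no member was called, at -3.94 for Hcn4 and -2.47 for Cacnb3 (edgeR adjusted p = 0.149 and 0.142). With the libraries scaled to the pan-cardiomyocyte list no member was called, although the interaction stayed below 0 at -2.61 for Hcn4 and -1.10 for Cacnb3. Hcn4 lost its call without any 1 of the 6 embryonic libraries, and so did Cacnb3, which also lost it without atrium-like replicate 3 or ventricle-like replicate 1 or 2. Without atria replicate 1, 2 or 3 or without ventricles replicate 2 or 3 of E11.5H no member was called. Without ventricles replicate 1 of E11.5H or replicate 1 of the ventricle-like parts 1 member was called. Without replicate 1 or 3 of the atrium-like or replicate 2 of the ventricle-like parts 2 were called. DESeq2 called 5 members, and 438 of all 16494 genes. Leaving out replicate 2 of both HO groups together, an alternative chosen after seeing the data, gave 4 called members, among them Hcn4, Cacnb3 and Cacna1d. That fit called 276 of all 16669 genes.

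**Figure D2:**
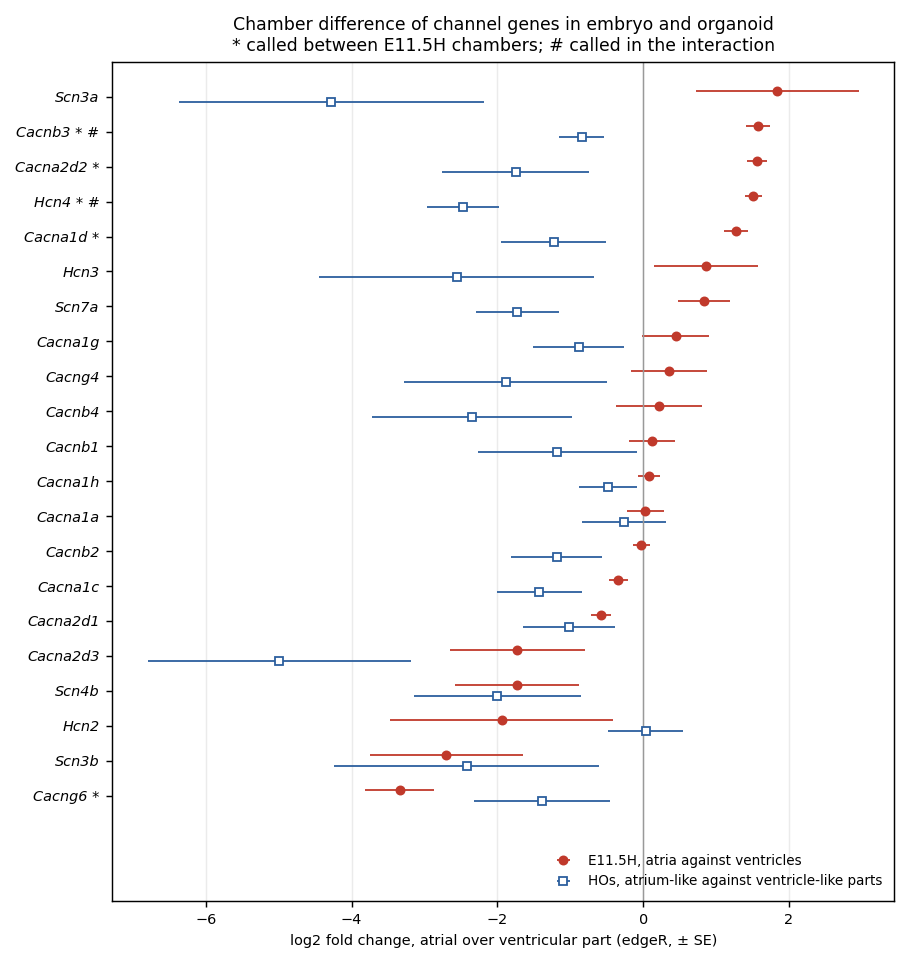
Log2 fold change of the atrial over the ventricular part (x axis, from edgeR, bars are ± SE) for members tested in both tissues, with filled red circles for E11.5H and open blue squares for HOs. Cacnb3, Cacna2d2, Hcn4 and Cacna1d lay right of 0 in E11.5H and left of 0 in HOs, and Cacng6 lay left of 0 in both.

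The sequences upstream of Hcn4 and Cacnb3 are shown because both genes were called in the interaction and have a promoter window in RefSeq (GRCm38.p6). Each line gives the 250 bases before the annotated start, 5′ to 3′ on the gene's strand, with motif matches in capitals. Hcn4 lies on the plus strand at chr9:58822699-58822948 and Cacnb3 on the plus strand at chr15:98632078-98632327, the first of its 2 annotated starts.
Hcn4: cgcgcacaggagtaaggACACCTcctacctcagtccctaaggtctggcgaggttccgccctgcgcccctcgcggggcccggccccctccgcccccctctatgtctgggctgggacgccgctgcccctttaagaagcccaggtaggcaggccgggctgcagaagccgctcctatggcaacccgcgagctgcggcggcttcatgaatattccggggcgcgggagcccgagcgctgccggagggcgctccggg
Cacnb3: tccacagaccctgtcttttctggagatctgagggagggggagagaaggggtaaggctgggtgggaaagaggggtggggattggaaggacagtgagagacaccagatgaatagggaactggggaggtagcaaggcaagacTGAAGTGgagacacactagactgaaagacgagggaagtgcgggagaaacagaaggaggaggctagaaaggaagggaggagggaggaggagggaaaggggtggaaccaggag
Searched on both strands were AGGTGT, the core bound by T-box factors such as Tbx3 and Tbx5, AGATAA, a core bound by GATA factors, and TNAAGTG, a core bound by Nkx2-5. The window of Hcn4 held the T-box letters on the reverse strand from base -233 to -228 before the start, and that of Cacnb3 held the Nkx2-5 letters from -111 to -105. Of all 32851 promoter windows of this length, 11.8% held the T-box letters, 9.99% the GATA letters and 10.1% the Nkx2-5 letters. None of the 3 motifs was found in the windows of Cacna1d, Cacna2d2 or Cacng6 or at the second start of Cacnb3.

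Among the pacemaker channels, Hcn4 (chromosome 9 from 58822949 to 58863174 of GRCm38, plus strand) is the main isoform of the sinoatrial node. It was at 10.4, 13.7 and 10.8 FPKM in the 3 atrial and at 4.27, 3.64 and 3.76 FPKM in the 3 ventricular libraries of E11.5H. The HO values were 0.462, 1.46 and 1.33 FPKM in atrium-like and at 9.58, 4.41 and 5.54 FPKM in ventricle-like parts. All atrial values of E11.5H exceeded all ventricular ones, whereas in HOs the highest atrium-like value was below the lowest ventricle-like value. Atria exceeded ventricles by a log2 fold change of 1.51 (SE 0.12, edgeR adjusted p = 2.52e-05), and atrium-like against ventricle-like parts gave -2.47 (SE 0.50, edgeR adjusted p = 0.750). The interaction was -3.97 (SE 0.53, edgeR adjusted p = 0.0323). The level of Hcn4 in ventricle-like parts, 6.51 ± 2.72 FPKM (SD, n = 3), overlapped neither embryonic group, lying above the ventricles and below the atria of E11.5H, and the log2 fold change against ventricles of 0.66 (SE 0.31, edgeR adjusted p = 0.158) did not pass the threshold.

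Hcn2 (chromosome 10 from 79716634 to 79736108, plus strand), an isoform of brain and of working myocardium after birth, was near the limit of detection in E11.5H. It was at 0.0973 FPKM in atria replicate 1 and at 0.205 and 0.175 FPKM in ventricles replicates 1 and 2, and listed at 0 in the other 3 embryonic libraries. Organoid levels of Hcn2 were 1.36, 0.970 and 2.02 FPKM in atrium-like and at 1.06, 1.68 and 2.16 FPKM in ventricle-like parts. Every HO library lay above every embryonic library, and the HO parts overlapped each other. Atrium-like parts against atria gave a log2 fold change of 5.58 (SE 1.53, edgeR adjusted p = 0.0355). Of the 6 fits that left out 1 library, 2 kept this call, and it was lost without atria replicate 2 or 3, without atrium-like replicate 1 or 3 and with the replicate number as a block. Atria replicate 1 held all 11 fragments of its group. Without it, and with 3 fragments over the other atrial libraries as the limit, Hcn2 was at least 104-fold higher in atrium-like parts. That limit covers atria replicates 2 and 3 only and does not hold for the group. The fit to all 3 atrial libraries gave the smaller log2 fold change of 5.58. Against ventricles that of ventricle-like parts was 3.60 (SE 1.21, edgeR adjusted p = 0.0692), which did not pass. Hcn2 overlaps Bc1, a neuronal RNA, on the opposite strand, and the counting is not stated to use strand.

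Hcn3 was at 0.485, 0.146 and 0.255 FPKM in atria and 0.115, 0.133 and 0.218 FPKM in ventricles of E11.5H. Among HO libraries Hcn3 was at 0.0321, 0.579 and 0.00942 FPKM in atrium-like and 0.215, 3.47 and 0.0851 FPKM in ventricle-like parts, so that both HO groups were highest in replicate 2. No comparison of Hcn3 passed the threshold. The neural list had its highest levels in the same libraries, with 78.7 FPKM in replicate 2 of the atrium-like and 343 FPKM in replicate 2 of the ventricle-like parts, and its part in the level of Hcn3 was not tested.

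Within the pacemaker family the share of Hcn4 was compared between the parts of each tissue. In E11.5H, Hcn4 made up 88.2 ± 2.0% of the summed FPKM of the 4 Hcn genes in atria and 91.7 ± 1.98% in ventricles (SD, n = 3 each). In HOs its share was 20.5 ± 5.40% in atrium-like and 41.6 ± 13.1% in ventricle-like parts (mean and SD, n = 3 each). The libraries of the parts did not overlap within either tissue (exact permutation test, two-sided, p = 0.1 in both, the smallest p that 3 against 3 allows, and 0.24 after adjustment over 12 share comparisons). Counted in fragments without division by length, the HO parts overlapped (exact permutation p = 0.2). Hcn2 led the family in 2 atrium-like libraries and Hcn4 in 2 ventricle-like libraries. By library, the share was 85.9% or more in the embryo and 52.0% or less in HOs. Such shares do not depend on scaling between libraries.

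**Figure D3:**
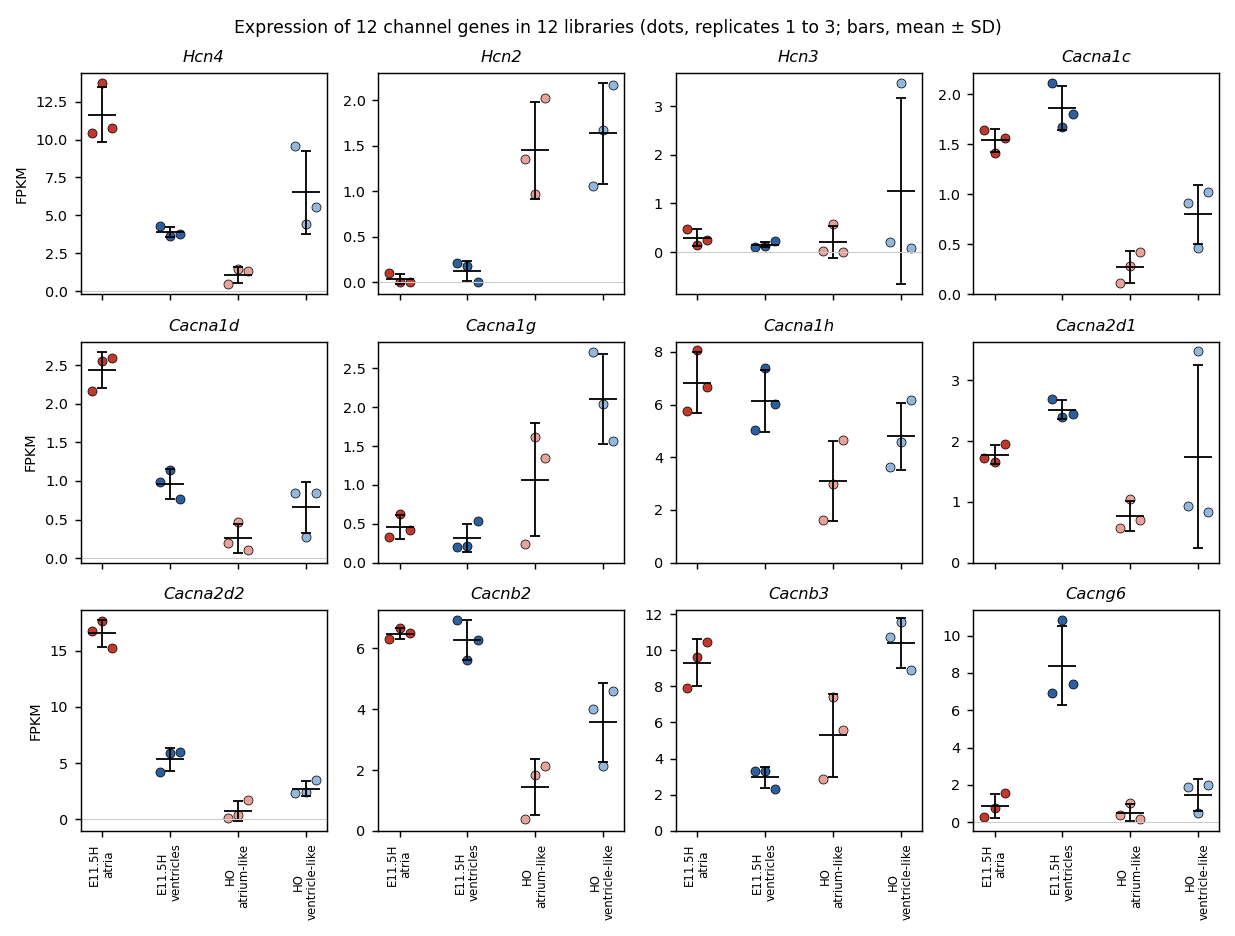
FPKM (y axis) of 12 channel genes in the 4 groups, with dots for replicates 1 to 3 from left to right, horizontal dashes for group means and bars for the SD. Hcn4 and Cacnb3 were highest in atria among the embryonic groups and highest in ventricle-like parts among the HO groups.

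Among the pores of the L-type channels, Cacna1d (chromosome 14 from 30039941 to 30491156, minus strand) contributes to the pacemaker potential in the sinoatrial node. It was at 2.17, 2.55 and 2.60 FPKM in atria and 0.990, 1.14 and 0.760 FPKM in ventricles of E11.5H, with no overlap. The atrium-like parts had 0.203, 0.469 and 0.108 FPKM and the ventricle-like parts 0.849, 0.281 and 0.848 FPKM, and these overlapped. The log2 fold change was 1.27 in E11.5H (SE 0.17, edgeR adjusted p = 0.000709) and -1.23 in HOs (SE 0.72, edgeR adjusted p = 0.750), where it turned to 0.55 under scaling to the pan-cardiomyocyte list. The interaction of -2.50 (SE 0.73, edgeR adjusted p = 0.261) did not pass the threshold. Cacna1d overlaps Chdh, Dcp1a and 4831407H17Rik on the opposite strand.

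Cacna1c (chromosome 6 from 118587240 to 119196409, minus strand), the main L-type pore of working myocardium, was at 1.65, 1.42 and 1.56 FPKM in atria and 2.11, 1.67 and 1.81 FPKM in ventricles of E11.5H. The log2 fold change was -0.34 (SE 0.13, edgeR adjusted p = 0.114), although the libraries did not overlap in FPKM. Cacna1c in HOs was at 0.109, 0.282 and 0.424 FPKM in atrium-like and 0.912, 0.466 and 1.02 FPKM in ventricle-like parts, with every atrium-like library lower. The log2 fold change between the HO parts was -1.43 (SE 0.58, edgeR adjusted p = 0.750) and became 0.01 when libraries were scaled to the pan-cardiomyocyte list. Cacna1c overlaps Dcp1b and 4931430N09Rik on the opposite strand.

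Cacna1d made up 61.2 ± 3.88% of the summed FPKM of Cacna1c and Cacna1d in atria and 34.0 ± 5.70% in ventricles of E11.5H, without overlap (SD, n = 3 each, exact permutation p = 0.1). In HOs the share was 49.3 ± 25.1% in atrium-like and 43.7 ± 5.5% in ventricle-like parts (mean and SD, n = 3 each, exact permutation p = 0.9). The atrium-like libraries ranged from 20.3% in replicate 3 to 65.1% in replicate 1, on either side of the ventricle-like libraries. Cacna1s, the L-type pore of skeletal muscle, was at 0.231, 0.496 and 0.597 FPKM in atria and 0.172, 0.346 and 0 FPKM in ventricles of E11.5H. It was at 0.776 FPKM in replicate 2 of the atrium-like parts, 0.135 FPKM in replicate 2 of the ventricle-like parts and listed at 0 in the other 4 HO libraries. These were also the HO libraries with Myog. Of the HO libraries, ventricle-like replicate 2 had the highest Myog, at 30.0 FPKM, and less Cacna1s than atrium-like replicate 2. In atria Myog was at 0.649, 1.30 and 7.95 FPKM, and Cacna1s too was lowest in replicate 1 and highest in replicate 3. In ventricles Myog was at only 0.0421, 0.126 and 0 FPKM, beside the Cacna1s levels of 0.172, 0.346 and 0 FPKM. The part of the skeletal muscle list in these levels was not tested.

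Cacna1h (chromosome 17 from 25374287 to 25433783, minus strand) made up most of the T-type pores in all 12 libraries. It was at 5.76, 8.07 and 6.67 FPKM in atria, 5.04, 7.38 and 6.02 FPKM in ventricles, 1.61, 3.0 and 4.67 FPKM in atrium-like and 3.64, 4.59 and 6.17 FPKM in ventricle-like parts. The chambers of E11.5H overlapped, with a log2 fold change of 0.08 (SE 0.15, edgeR adjusted p = 0.796), and no comparison of Cacna1h passed the threshold. Cacna1g (chromosome 11 from 94408391 to 94474198, minus strand), a T-type pore of the pacemaker and conduction system, was at 0.330, 0.625 and 0.423 FPKM in atria and 0.205, 0.215 and 0.531 FPKM in ventricles. In HOs Cacna1g was at 0.244, 1.62 and 1.34 FPKM in atrium-like and 2.72, 2.04 and 1.56 FPKM in ventricle-like parts. Every ventricle-like library lay above every ventricular library, by 2.63 on the log2 scale (SE 0.51, edgeR adjusted p = 0.0146), while the atrium-like libraries spanned the atrial ones. The share of Cacna1g in the T-type pores was 6.17 ± 0.923% in atria, 4.95 ± 2.79% in ventricles, 23.5 ± 11% in atrium-like and 31.1 ± 11.3% in ventricle-like parts (mean and SD, n = 3 each), and the parts overlapped within each tissue (exact permutation p = 0.5 in both).

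The pores of the neuronal type were low in the embryonic heart. Cacna1a was at 0.478 to 0.665 FPKM in E11.5H and 0.215 to 0.552 FPKM in HOs, and Cacna1e reached no more than 0.212 FPKM. Cacna1b was at 0 to 0.0255 FPKM in E11.5H and reached 0.686 FPKM in replicate 2 of the ventricle-like parts, the library with the highest neural list. No comparison of these 3 genes passed the threshold.

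The auxiliary subunits, which bring the pores to the membrane and set their gating, held 3 of the 6 genes called between the chambers of E11.5H. Cacna2d2 (chromosome 9 from 107399880 to 107529343, plus strand), an alpha2delta subunit, was the highest member of all in atria by FPKM. It was at 16.7, 17.7 and 15.3 FPKM in atria and 4.17, 5.86 and 5.96 FPKM in ventricles of E11.5H, with a log2 fold change of 1.56 (SE 0.14, edgeR adjusted p = 7.80e-05). The HO libraries had 0.0757, 0.389 and 1.74 FPKM in atrium-like and 2.31, 2.43 and 3.46 FPKM in ventricle-like parts, with a log2 fold change of -1.75 (SE 1.01, edgeR adjusted p = 0.750). Under scaling to the pan-cardiomyocyte list the log2 fold change between the HO parts shrank to -0.67 (SE 1.04). In FPKM no atrial library overlapped a ventricular library in either tissue, and the order of the parts was opposite. The interaction of -3.30 (SE 1.04, edgeR adjusted p = 0.294) did not pass the threshold. It ran from -5.01 to -2.77 with libraries left out. Of the fits without a single library, only that without atrium-like replicate 3 called it (-5.01, edgeR adjusted p = 0.0400).

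Cacna2d1, the alpha2delta subunit of working muscle, went the other way in the embryo, with 1.73, 1.65 and 1.95 FPKM in atria and 2.70, 2.40 and 2.45 FPKM in ventricles. Its log2 fold change of -0.57 (SE 0.14, edgeR adjusted p = 0.0210) was under the fold limit. Its share of the alpha2delta family was 9.71 ± 1.38% in atria and 31.7 ± 6.26% in ventricles of E11.5H (mean and SD, n = 3 each, exact permutation p = 0.1, no overlap). In HOs the share was 59.0 ± 27.8% in atrium-like and 24.1 ± 7.86% in ventricle-like parts (mean and SD, n = 3 each, exact permutation p = 0.2). The HO libraries overlapped, since atrium-like replicate 3 was at 28.7% and ventricle-like replicate 2 at 33.0%. Cacna2d3 was at 0.0241 to 0.403 FPKM in E11.5H and reached 4.56 FPKM in replicate 2 of the ventricle-like parts, with 1.08 and 0.309 FPKM in the other ventricle-like libraries.

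Cacnb3 (chromosome 15 from 98632328 to 98644536, plus strand) was the beta subunit with the atrial difference. It was at 7.91, 9.60 and 10.4 FPKM in atria and 3.30, 3.33 and 2.30 FPKM in ventricles of E11.5H. Cacnb3 was at 2.87, 7.44 and 5.59 FPKM in atrium-like and 10.7, 11.6 and 8.91 FPKM in ventricle-like parts. The parts did not overlap in either tissue, with the atrial part higher in E11.5H and lower in HOs. Cacnb3 had a log2 fold change of 1.58 in E11.5H (SE 0.17, edgeR adjusted p = 0.000209) and -0.84 in HOs (SE 0.31, edgeR adjusted p = 0.750), where it turned to 0.47 under scaling to the pan-cardiomyocyte list. The interaction was -2.41 (SE 0.37, edgeR adjusted p = 0.0430), and against ventricles the ventricle-like parts were 1.71 higher on the log2 scale (SE 0.21, edgeR adjusted p = 0.00378).

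Cacnb2, the main beta subunit of cardiac L-type channels, overlapped between the embryonic chambers, at 6.30, 6.66 and 6.49 FPKM in atria and 6.93, 5.63 and 6.27 FPKM in ventricles. The fitted log2 fold change was -0.02 (SE 0.11, edgeR adjusted p = 0.927). Cacnb2 levels in HOs were 0.400, 1.84 and 2.12 FPKM in atrium-like and 4.0, 2.12 and 4.60 FPKM in ventricle-like parts. The share of Cacnb2 in the beta subunits was therefore lower in atria, at 38.7 ± 2.85%, than in ventricles, at 61.9 ± 5.45%, without overlap (SD, n = 3 each, exact permutation p = 0.1). Among HO libraries this share was 18.4 ± 7.69% in atrium-like and 23.3 ± 10.2% in ventricle-like parts (mean and SD, n = 3 each, exact permutation p = 0.6), and Cacnb3 led in all 6 HO libraries. Cacnb1, of skeletal muscle channels, was at 0.695 to 1.02 FPKM in E11.5H and highest in HOs in both libraries of replicate 2, at 1.64 and 2.86 FPKM. Cacnb4, a neuronal beta subunit, was at 0.0702 to 0.140 FPKM in E11.5H and reached 0.680 FPKM in ventricle-like replicate 2. Neither Cacnb1 nor Cacnb4 passed the threshold in a comparison.

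Cacng6 (chromosome 7 from 3424662 to 3435667, plus strand), a gamma subunit of heart and skeletal muscle, was the member called higher in ventricles. It was at 0.299, 0.767 and 1.55 FPKM in atria and 6.92, 10.8 and 7.42 FPKM in ventricles of E11.5H, without overlap. The log2 fold change was -3.34 (SE 0.47, edgeR adjusted p = 0.00117). Cacng6 was at 0.370, 1.02 and 0.163 FPKM in atrium-like and 1.90, 0.466 and 1.98 FPKM in ventricle-like parts, which overlapped, with a log2 fold change of -1.39 (SE 0.93, edgeR adjusted p = 0.750) that turned to 0.40 under scaling to the pan-cardiomyocyte list. The interaction was 1.95 (SE 1.09, edgeR adjusted p = 0.513) and did not pass. Ventricle-like parts were lower than ventricles by -2.61 on the log2 scale (SE 0.61, edgeR adjusted p = 0.0244). Within atria Cacng6 was highest in replicate 3, the library with the highest mean of the skeletal muscle list in the embryo (2.73 log2 CPM, against 0.77 and 1.23 in the other atrial libraries). By summed FPKM the same list was lowest there among atria, at 466 FPKM against 641 and 539 FPKM, and the part of that list was not tested.

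The other expressed gamma subunits were highest in HO libraries. Cacng1, of skeletal muscle, had no fragment in any of the 6 embryonic libraries and was at 4.08 FPKM in atrium-like replicate 2, 5.06 FPKM in ventricle-like replicate 2 and 0.743 FPKM in ventricle-like replicate 3. Cacng3, a subunit best known from glutamate receptors of the brain, was listed at 0 in the 3 ventricular libraries and had 276 fragments in the ventricle-like parts. Taking 3 fragments over the ventricular group as the limit, Cacng3 was at least 90.8-fold higher in ventricle-like parts. That bound pools the libraries and covers counting error only, not the spread between them. The edgeR fit gave a log2 fold change of 9.43 (SE 2.22, edgeR adjusted p = 0.0425). Of its fragments in ventricle-like parts 239.5, an estimated count, lay in replicate 2, and without that library Cacng3 was at least 18.2-fold higher. The call was lost with DESeq2, with the replicate block, without any 1 of the 3 ventricular libraries and without ventricle-like replicate 1. Cacng4 was at 0.232 to 0.768 FPKM in E11.5H and reached 5.61 FPKM in ventricle-like replicate 2.

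Among the sodium channel pores, Scn7a, a sodium-sensing channel of glia and other cells, was at 0.659, 0.640 and 0.878 FPKM in atria, 0.238, 0.566 and 0.355 FPKM in ventricles, 0.129, 0.141 and 0.302 FPKM in atrium-like and 0.550, 0.789 and 0.807 FPKM in ventricle-like parts. Every atrium-like library lay below every atrial and every ventricle-like library. Its interaction of -2.56 (SE 0.67, edgeR adjusted p = 0.219) did not pass the threshold. Scn10a, known from sensory neurons and the conduction system, had 354 fragments in atria of E11.5H and 3 in atrium-like parts, a ratio per library depth of 108 with a 95% counting interval of 36.7 to 527.

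The pores of the neuronal type lay mostly in 1 library. Scn2a was at 2.35 FPKM and Scn3a at 2.05 FPKM in ventricle-like replicate 2, with at most 0.150 FPKM for Scn2a and 0.261 FPKM for Scn3a in the other 11 libraries. Scn9a, a sensory neuron channel, had no fragment in E11.5H and 116 of its fragments in ventricle-like replicate 2, 19 in ventricle-like replicate 1 and 18 in atrium-like replicate 2. These were also the 3 HO libraries with the highest neural list, at 343, 74.1 and 78.7 FPKM, and the part of that list in these levels was not tested. Scn8a was at 0.0327, 0.00813 and 0.00296 FPKM in ventricles and 0.150, 0.477 and 0.0755 FPKM in ventricle-like parts, and Scn4a, of skeletal muscle, reached no more than 0.200 FPKM. Replicate 2 of the ventricle-like parts had the most members at 10 or more fragments, 40 of 44, against 19 to 35 in the other 11 libraries.

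Among the sodium channel beta subunits, Scn3b, found in neurons and heart, was at 0, 0.0560 and 0.0145 FPKM in atria and 0.147, 0.139 and 0.160 FPKM in ventricles of E11.5H. It was at 0.0989, 2.07 and 0.0217 FPKM in atrium-like and 1.29, 10.3 and 0.342 FPKM in ventricle-like parts, so that every ventricle-like library lay above every ventricular one. The log2 fold change of ventricle-like parts against ventricles was 4.62 (SE 1.29, edgeR adjusted p = 0.0407), and it was 2.39 without ventricle-like replicate 2. The call was lost there, without ventricle-like replicate 1, without any 1 of the 3 ventricular libraries and with the replicate block (3.35, edgeR adjusted p = 0.125). Scn2b and Scn4b were at no more than 0.720 FPKM in all libraries and passed no test.

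**Figure D4:**
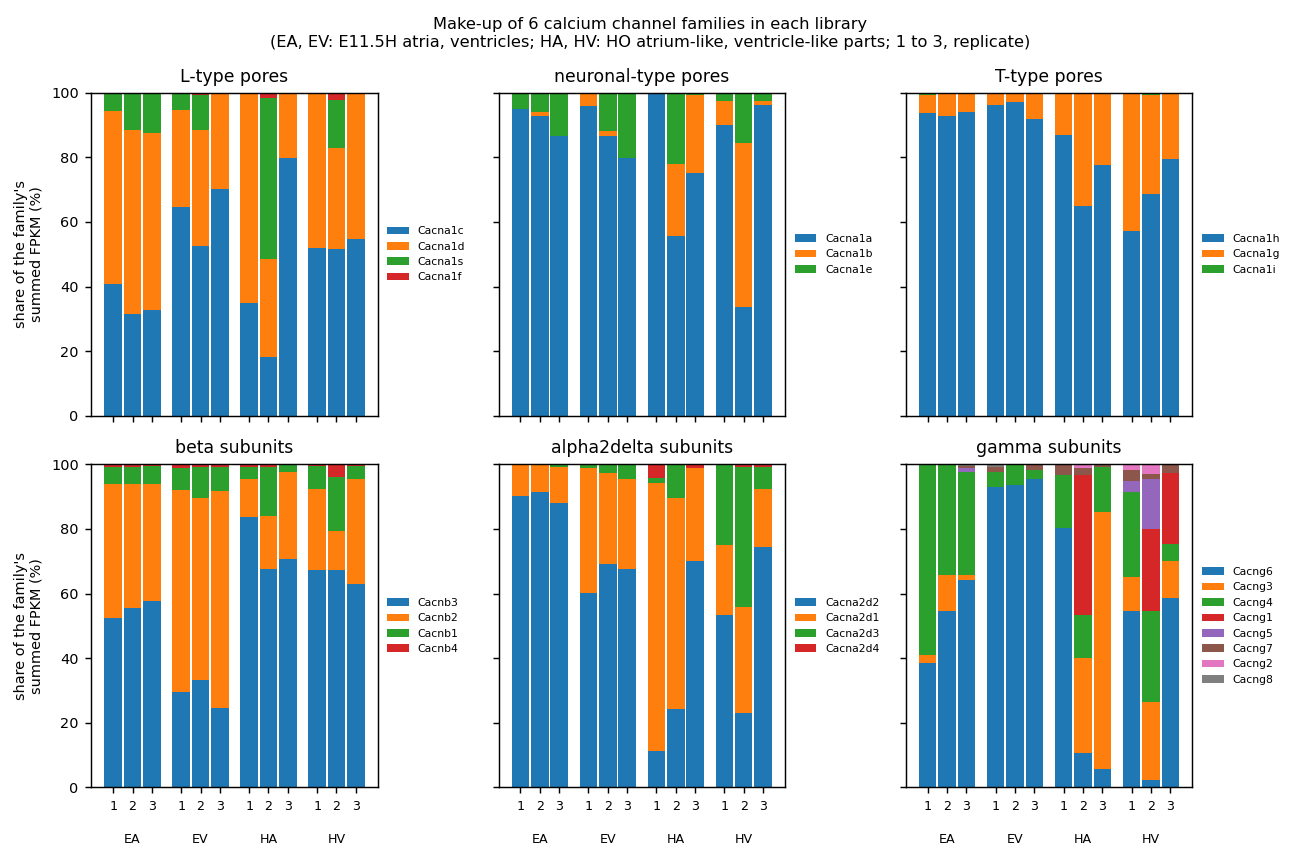
Share of each gene in the summed FPKM of its family (y axis, in percent) in each library (x axis), for 6 calcium channel families. Cacna1d led the L-type pores in atria and Cacna1c in ventricles of E11.5H, and Cacnb3 led the beta subunits in all libraries except the 3 ventricular ones of E11.5H.

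Set against the matching embryonic chamber, the atrium-like parts had less of the pacemaker and L-type genes that were higher in atria. Of 29 members tested, 11 were called, against 24.8% of all 15418 genes. Members called higher were 2 of 29, among them Hcn2, against 16% of all genes, and members called lower were 9 of 29, against 8.81%. Among those lower were Hcn4 at -3.29 (SE 0.39, edgeR adjusted p = 0.00369), Cacna1d at -3.10 (SE 0.52, edgeR adjusted p = 0.00848), Cacna2d2 at -4.34 (SE 1.01, edgeR adjusted p = 0.0216) and Cacna1c at -2.36 (SE 0.47, edgeR adjusted p = 0.0140), all log2 fold changes. Cacnb2 was lower by -2.03, Scn7a by -1.75 and Cacna2d1 by -1.06 on the same scale, with edgeR adjusted p from 0.0325 to 0.0445, and Scn10a was called too (edgeR adjusted p = 0.0127). All 16 genes of the pan-cardiomyocyte list were called lower in the same comparison, with a median log2 fold change of -3.97, and all 9 hepatocyte and visceral endoderm genes and all 10 gut epithelium genes were called higher. The part of these lists in the channel differences was not tested. Hcn4 and Cacna1d were called with each of the 6 libraries left out, while the count of called members was 4 without atria replicate 1, 3 without atria replicate 2 and 3 without atria replicate 3. The calls of Cacna1c, Cacna2d2, Cacnb2 and Scn10a were each lost without any 1 of the 3 atrial libraries. So were those of Scn7a and Cacna2d1, which were also lost without atrium-like replicate 1, with the replicate block and, for Scn7a, without atrium-like replicate 2 and with no filter on low counts or, for Cacna2d1, without atrium-like replicate 3.

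The ventricle-like parts differed from ventricles in another set of channel genes. Of 31 members tested, 11 were called, against 18.9% of all 15094 genes, 7 higher against 11.6% of all genes and 4 lower against 7.35%. Among those higher were Cacnb3, Cacna1g, Scn3b, Scn8a and Cacng3, and among those lower were Cacna1c, Cacna2d2 and Cacng6. Cacna1c was lower by -1.31 (SE 0.33, edgeR adjusted p = 0.0304) and Cacna2d2 by -1.06 (SE 0.25, edgeR adjusted p = 0.0250) on the log2 scale, and Scn8a was higher by 3.87 (SE 1.14, edgeR adjusted p = 0.0472). In the same comparison 12 of 16 pan-cardiomyocyte genes were called lower, with a median log2 fold change of -2.52, and 4 of 6 tested hepatocyte and visceral endoderm genes and 7 of 9 gut epithelium genes were called higher. Cacnb3 was called with each of the 6 libraries left out. The calls of Cacna1c, Cacng6 and Scn8a were each lost without any 1 of the 3 ventricular libraries and without ventricle-like replicate 1. That of Scn8a was also lost without ventricle-like replicate 2, with no filter on low counts and with the replicate block, and that of Cacng6 with the block. Cacna2d2 lost its call without ventricles replicate 2 or 3 or ventricle-like replicate 1 or 2, and Cacna1g without ventricles replicate 1 or 2. The count of called members was 5 without ventricles replicate 1, 4 without ventricles replicate 2, 5 without ventricles replicate 3 and 5 without ventricle-like replicate 1. With the replicate number as a block it was 7.

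The direction of most of these differences depended on the scaling. With libraries scaled to equal levels of the pan-cardiomyocyte list, the median log2 fold change over all genes moved to 4.31 in atrium-like parts against atria and to 2.83 in ventricle-like parts against ventricles. The members' median was 3.14 and 3.54 in these comparisons, with 20 and 25 members called, all of them higher. Over all genes, 14376 of 15418 and 13417 of 15094 were called higher, so most genes of the whole table were called too. Fitted below 0 were 3 of 29 members in atrium-like parts (Scn10a and Cacna2d2 among them) and 3 of 31 in ventricle-like parts (Scn10a and Cacng6 among them). Under this scaling Hcn4 was at 0.69 (SE 0.49) in atrium-like parts, where the median of all genes was 4.31. In ventricle-like parts Hcn4 was at 3.30 (SE 0.51), little above the median of 2.83. Setting a gene against that median largely undoes the scaling, so it is no separate result from TMM. With TMM the values were -3.29 and 0.66, the latter not past the threshold (edgeR adjusted p = 0.158).

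**Figure D5:**
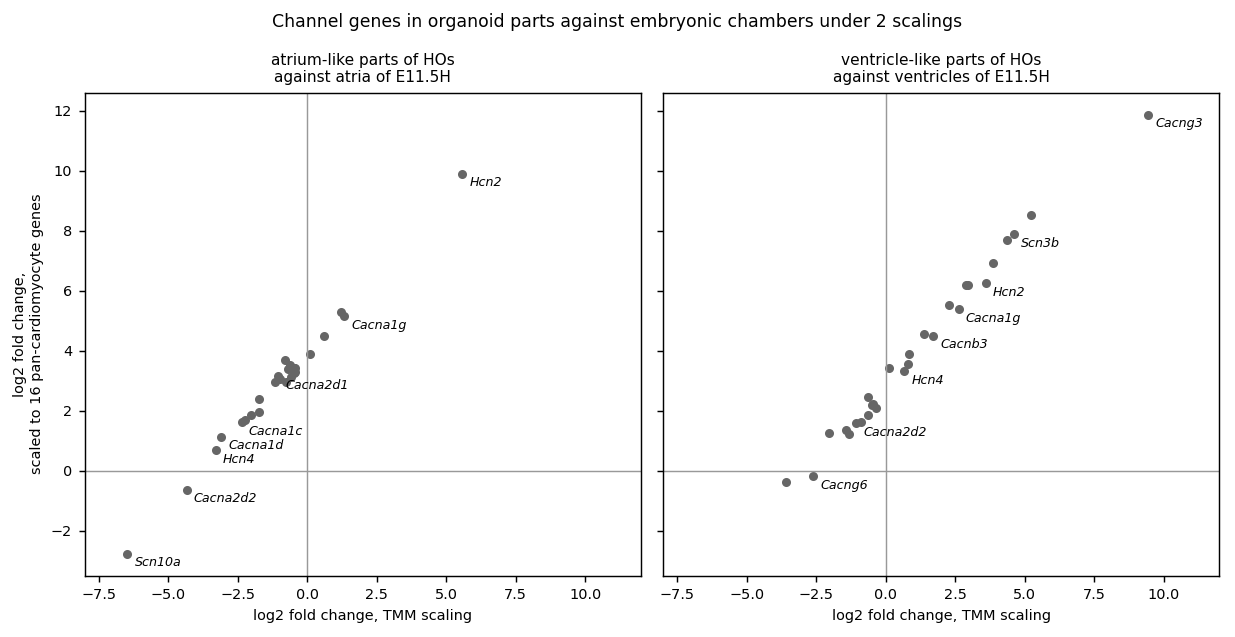
Log2 fold change of members in HO parts against the matching chamber of E11.5H under TMM scaling (x axis) and under scaling to 16 pan-cardiomyocyte genes (y axis). Nearly all points lie above 0 on the y axis, with Scn10a below 0 on both axes in both panels.

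Other genes of the pacemaker program and partners of the channels were taken from lists. Of 9 sinus node genes, 6 were called higher in atria of E11.5H, against 2.92% of all genes, with the largest differences for Shox2 at 7.34, Vsnl1 at 6.68 and Smoc2 at 3.55 on the log2 scale (edgeR adjusted p from 4.25e-08 to 3.12e-06). The same 3 genes were called in the interaction, at -8.94 for Shox2, -10.19 for Vsnl1 and -3.60 for Smoc2 (edgeR adjusted p from 0.000193 to 0.0398), against 0.127% of all genes called lower. Without atria replicate 1, 2 or 3 or ventricles replicate 2 only 2 genes of the whole table were called, so not all 3 calls held. Under scaling to the pan-cardiomyocyte list 2 of the 9 sinus node genes were called lower, with 21 of all 16494 genes called. Vsnl1 was at 25.3 to 27.7 FPKM in atria and 0.0960 to 0.332 FPKM in ventricles of E11.5H, and at 0.0952 to 0.472 FPKM in atrium-like and 1.56 to 6.09 FPKM in ventricle-like parts. In atrium-like parts against atria 6 of the 9 genes were called lower, against 8.81% of all genes, and 1 was called higher, against 16%, with a median log2 fold change of -2.74. The lower ones included Tbx18 at -6.64, Vsnl1 at -6.61, Cpne5 at -4.52 and Shox2 at -4.02, and the higher one was Tbx3, a repressor of the working myocardial program in the node, at 1.01. In ventricle-like parts against ventricles 4 were called higher (Shox2, Vsnl1, Tbx3 and Rgs6), against 11.6%, and Tbx18 was called lower, against 7.35%, with a median of 1.0. Under scaling to the pan-cardiomyocyte list 5 were higher and 2 lower in atrium-like parts and 8 higher in ventricle-like parts. Of all genes, 14452 of 15418 were called in atrium-like parts, 14376 of them higher. In ventricle-like parts 13499 of 15094 were called, 13417 of them higher.

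Of 31 partners of the channels, such as regulators of sodium channel inactivation and genes of calcium release, 26 were tested between the chambers of E11.5H. Called higher in atria were Fgf12, a regulator of sodium channel inactivation, at 5.31 (SE 0.52, edgeR adjusted p = 0.000128), and Ryr3, a calcium release channel, at 2.20 (SE 0.37, edgeR adjusted p = 0.00343), both on the log2 scale. Called lower was Pln, the inhibitor of the calcium pump of the sarcoplasmic reticulum, at -3.84 (SE 0.13, edgeR adjusted p = 1.56e-07). The remaining 23 were not called, and over all genes 2.92% were called higher and 1.97% lower. Between the HO parts none of 28 tested partners was called, and in the interaction none of 30, where Fgf12 was at -7.23 (SE 1.28, edgeR adjusted p = 0.0816). In atrium-like parts against atria 12 of 25 tested partners were called lower, against 8.81% of all genes, and 1 was called higher, against 16%. In ventricle-like parts against ventricles 7 of 26 were called lower, against 7.35%, and 1 was called higher, against 11.6%. Scaled to the pan-cardiomyocyte list, none was called lower in either comparison, and 19 and 18 were called higher. The same scaling called 14376 of 15418 and 13417 of 15094 of all genes higher.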

How the data were processed

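RNA-seq libraries of 4 groups with 3 replicates each were analysed. Reads were aligned by the authors with STAR against mouse build GRCm38 (mm10), and they deposited, per gene and library, expected counts (estimated counts of fragments, not normalized) and FPKM values. Versions, annotation release and strand use are not given in the sources used here. Of the counts 23.8% were not whole, and all were rounded before testing. FPKM as deposited equalled count over transcript width and library total within 0.1% for 99.9% of values.

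Counts of 23971258 to 30540993 per library were tested with edgeR 4.0.16 under R 4.3.3 (quasi-likelihood test, TMM, genes kept by filterByExpr at 10 counts, p adjusted over all genes tested by Benjamini-Hochberg). Each pair of groups was fitted alone and the interaction over all 12 libraries. Shares within families were compared with exact permutation tests, two-sided, over 12 comparisons. Alternatives were RLE size factors, DESeq2 1.42.0, no filter, a replicate block, each library left out, pan-cardiomyocyte scaling and shares of fragments. Plots were drawn with matplotlib 3.10.9.

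The text gives all 12 values of Hcn2 to Hcn4, Cacna1c, Cacna1d, Cacna1g, Cacna1h and Cacna1s and of members called between the chambers of E11.5H or in the interaction. Some members are not reported here and enter only the counts. Other members are named within their family, and list genes by their largest differences between those chambers. Tbx3, Tbx18, Cpne5 and Rgs6 were named after their values were seen, as were Tnnt2, Actn2 and Myog. The members and lists were chosen with earlier results of these data known. No table of fold changes by the authors was used.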

Additional observations from a re-analysis of the deposited data

Results flagged for a closer look

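Hcn4 and Cacnb3 were picked out because their chamber difference differed between HOs and E11.5H by a test of that difference. The chamber difference in HOs minus that in E11.5H was -3.97 for Hcn4 and -2.41 for Cacnb3 on the log2 scale (edgeR adjusted p = 0.0323 and 0.0430). Both calls were lost with the replicate block, under scaling to pan-cardiomyocyte genes and without any 1 of the 6 embryonic libraries, and over the 12 fits that left out 1 library Hcn4 was called in 6 and Cacnb3 in 3. For each gene the 3 atrial libraries of E11.5H lay above the 3 ventricular ones and the 3 atrium-like libraries of HOs lay below the 3 ventricle-like ones. The pan-cardiomyocyte list, at 4.65 to 6.33 log2 CPM in atrium-like and 6.70 to 8.19 log2 CPM in ventricle-like parts, was lower in the same HO part.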

How the results depend on the processing

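The 6 channel genes called between the chambers of E11.5H stayed at 6 under every alternative run, including each library left out (6 to 6). Between the HO parts the count was 0 except under DESeq2, with 1, and 0 to 0 with libraries left out. In atrium-like parts against atria the count of 11 became 20 under scaling to pan-cardiomyocyte genes and ranged from 3 to 13 with libraries left out. That scaling called 14452 of all 15418 genes there, and 13499 of all 15094 in ventricle-like parts against ventricles. In ventricle-like parts against ventricles the count of 11 became 25 under that scaling, 7 with the replicate block and 4 to 16 with libraries left out. In the interaction the count of 3 became 5 with DESeq2, which called 438 of all 16494 genes. It became 0 with the replicate block, 0 under pan-cardiomyocyte scaling and 0 to 4 with libraries left out. The 4 came from leaving out replicate 2 of both HO groups, which was chosen after seeing the data. That fit called 276 of all 16669 genes. With the replicate block the counts were 6 between the chambers of E11.5H, 0 between the HO parts and 8 in atrium-like parts. Samples of the same number did not deviate together in every pair (correlations 0.01, 0.03 and 0.07 in E11.5H and -0.04, 0.61 and 0.41 in HOs), so the number was not taken as a pairing.

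Scaling to pan-cardiomyocyte genes reversed Cacna1d (0.55), Cacnb3 (0.47), Cacng6 (0.40) and Cacna1c (0.013) between the HO parts, where 29 of 30 members lay below 0 before it and 15 after it. In atrium-like parts against atria it reversed Hcn4 (0.69), Cacna1d (1.13), Cacna1c (1.60), Cacnb2 (1.84), Scn7a (2.37) and Cacna2d1 (3.14), and in ventricle-like parts against ventricles Cacna1c (1.22) and Cacna2d2 (1.59), all log2 fold changes. By construction that scaling sets the cardiomyocyte list equal. In HOs the difference between the parts in the share of Cacna1d ran from -2.29 to 20.1 percentage points with libraries left out, so it had no settled direction. Near 0 between the chambers of E11.5H, Cacna1h ran from -0.059 to 0.22 with libraries left out (below 0 without ventricles replicate 1 and, at -0.046, without atria replicate 2) and Cacnb2 from -0.10 to 0.035 (above 0 without ventricles replicate 1). The 40 fold changes of named members had 479 values under alternatives, of which 370 kept their direction and their side of the threshold, 86 fell short of it, 8 newly passed it and 15 turned. Where a call was lost the cause was not tested. Scn9a had no fragment in E11.5H, so its level there was known only as below the limit of a count of 0.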
